A study of Mus musculus with 12 samples.

Results

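A set of 10 mast cell and basophil genes was followed by name through whole-lung RNA sequencing of mice: *Mcpt1*, *Mcpt2*, *Mcpt4*, *Mcpt8*, *Cpa3*, *Tpsb2*, *Tpsab1*, *Cma1*, *Kit* and *Ms4a2*. All 10 symbols matched a single row each among the 54532 genes of the count table. Mice carried Cc10-Cre alone (WT) or Cc10-Cre with both *Rhoa* alleles floxed (CKO), so every animal carried the Cre transgene. Cc10 is the secretory protein of club (Clara) cells of the airway lining, and Cre would act in Cc10-expressing cells, not in mast cells or basophils. Each genotype received PBS or a treatment that the labels call CRE without spelling it out. CRE is kept here as a label and is not the Cre recombinase. These combinations are written WT_PBS, WT_CRE, CKO_PBS and CKO_CRE, each with 3 libraries. The sources used here give no age, dose or timing, and nothing in the labels says that the 3 libraries of a group came from separate mice. The p-values therefore measure the spread between these libraries.

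Mast cells and basophils are granulated immune cells that carry the high-affinity IgE receptor and release histamine, proteases and lipid mediators when antigen crosslinks IgE on their surface. Mouse mast cells are divided by the proteases in their granules: connective tissue mast cells store *Mcpt4*, *Cma1*, tryptases and *Cpa3*, while mucosal mast cells store *Mcpt1* and *Mcpt2* and appear in the airway lining in type 2 inflammation. *Mcpt8* marks basophils. *Kit*, the receptor for stem cell factor, is needed for mast cell survival but is also expressed by lung capillary endothelium and blood progenitors.

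Library totals ran from 16250674 to 21559210 counts. Of the 10 genes, 8 passed the filter on low counts and were tested among 17473 genes. *Mcpt8* and *Tpsab1* did not pass. Levels are given as CPM, a gene's counts relative to the TMM-scaled library size, differences as log2 fold changes ± SE, and a gene was called when edgeR's quasi-likelihood test, with Benjamini-Hochberg adjustment over all tested genes, gave an adjusted p below 0.05. Whether libraries overlapped is given as a description only, because the share of all genes with no overlap is not given. The SE was worked back as the absolute log2 fold change over the square root of that test's F statistic. It is unreliable near 0 counts: for *Mcpt2* it was 1.29 in WT and 1.81 in CKO, but 0.553 for the difference of these responses. By Y-linked counts WT_PBS held 0 females of 3, CKO_PBS 1, WT_CRE 2 and CKO_CRE 2, so sex differed between the groups compared. On principal component 1 of all genes the CKO_CRE libraries lay apart from each other, at scores of 10.1, 82.6 and 31.2 for replicates 1, 2 and 3, against 71.6 to 84.7 in WT_CRE and -66.5 to -47.3 over both PBS groups. Replicate 2 of CKO_CRE thus lay with WT_CRE. A set of 6 lung markers (*Sftpc*, *Sftpb*, *Ager*, *Cldn18*, *Scgb1a1* and *Cdh5*) was above 0 in every group and summed to 21871 to 24518 CPM in the PBS groups and 12665 to 17578 CPM in the CRE groups.

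Of the genes, 5 lie in the chymase locus on chromosome 14, within 144 kb between positions 55941451 and 56085273 (GRCm38/mm10, GENCODE M21). In order along the chromosome these are *Cma1* (55941451 to 55944675, minus strand), *Mcpt1* (56017971 to 56020384, plus strand), *Mcpt2* (56042041 to 56044642, plus strand), *Mcpt4* (56059629 to 56062313, minus strand) and *Mcpt8* (56082166 to 56085273, minus strand), each with 5 exon blocks. The tryptase genes *Tpsab1* (25343245 to 25345562, minus strand) and *Tpsb2* (25366305 to 25369098, plus strand) lie 20.7 kb apart on chromosome 17. The longest alignment of *Mcpt1* and *Mcpt4* transcripts was 82.5% identical over 998 bases, and that of *Mcpt1* and *Mcpt2* was 77.9% identical over 1017 bases. No member had another transcript at 98% identity or more over 200 bases, the bound used here for reads that could be split between copies. The nearest was *Gm48934*, a pseudogene 96.9% identical to *Cma1* over 295 bases, which had no counts.

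RefSeq promoter windows (GRCm38.p6, 250 bases before to 50 after a start) were on hand for 7 of the 10 genes. The 120 bases before the start are shown for 3 of them, because *Mcpt1* and *Mcpt4* have similar windows while *Mcpt1* was called in WT and *Mcpt4* was not, and because *Cpa3* moved the opposite way to *Mcpt1*. Capitals mark GATAA, a core bound by GATA factors, and TATAAA, the TATA element. They were written 5′ to 3′ on the gene's strand, from chr14:56017844-56017963 (plus), chr14:56062311-56062430 (minus) and chr3:20242182-20242301 (minus).
Mcpt1: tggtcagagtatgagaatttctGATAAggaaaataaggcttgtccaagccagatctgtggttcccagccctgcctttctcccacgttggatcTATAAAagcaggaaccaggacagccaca
Mcpt4: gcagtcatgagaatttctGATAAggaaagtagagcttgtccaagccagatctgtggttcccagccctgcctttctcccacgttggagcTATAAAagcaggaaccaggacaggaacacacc
Cpa3: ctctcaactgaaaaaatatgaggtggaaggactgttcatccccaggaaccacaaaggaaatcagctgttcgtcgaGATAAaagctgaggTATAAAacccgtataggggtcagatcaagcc

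GATAA began 98 bases before the start in *Mcpt1*, 102 in *Mcpt4* and 45 in *Cpa3*, and TATAAA began 28, 32 and 31 bases before it. Over the whole windows *Mcpt1* and *Mcpt4* were 85.57% identical over 291 aligned bases. GATAA on either strand was found in 25.4% of 32851 promoter windows of the same length and TATAAA on the gene's strand in 8.32%. TTATC, the reverse complement of GATAA, stood in the windows of *Cma1*, 194 bases before the start, and of *Ms4a2*, whose window held 3 matches in all. Neither GATAA on either strand nor TATAAA was in the windows of *Mcpt8* and *Kit*. These matches describe the letters of the windows only.

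*Kit* had the highest level of the 10 genes per kilobase of exon in all 4 groups, at 25.7 ± 0.378 CPM per kb in WT_PBS and 17.4 ± 1.43 under CRE, with 19.8 ± 3.39 and 18.7 ± 2.10 in the CKO groups (SD, n = 3). Under PBS the order below it was *Cpa3* (3.47 ± 0.104 CPM per kb in WT_PBS, 2.86 ± 0.899 in CKO_PBS) and then *Cma1* (0.700 ± 0.328 and 1.16 ± 0.330), with no overlap between neighbours in this order. In WT_PBS *Mcpt4*, *Tpsb2*, *Ms4a2*, *Mcpt8*, *Mcpt2*, *Mcpt1* and *Tpsab1* followed, and no neighbours among these 7 differed beyond their libraries' range. In WT_CRE *Mcpt1* (4.35 ± 2.61 CPM per kb) and *Mcpt2* (2.37 ± 1.31) stood next after *Kit*, ahead of *Cpa3* (1.45 ± 0.474), but *Mcpt1*, *Mcpt2*, *Cpa3* and *Cma1* overlapped from each to the next. In CKO_CRE *Cpa3* (1.81 ± 0.384 CPM per kb) and *Cma1* (0.939 ± 0.124) were again the next after *Kit* and did not overlap each other, while from *Cma1* down *Tpsb2*, *Mcpt1*, *Mcpt2*, *Mcpt4*, *Mcpt8* and *Ms4a2* overlapped in turn.

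**Figure D1:**
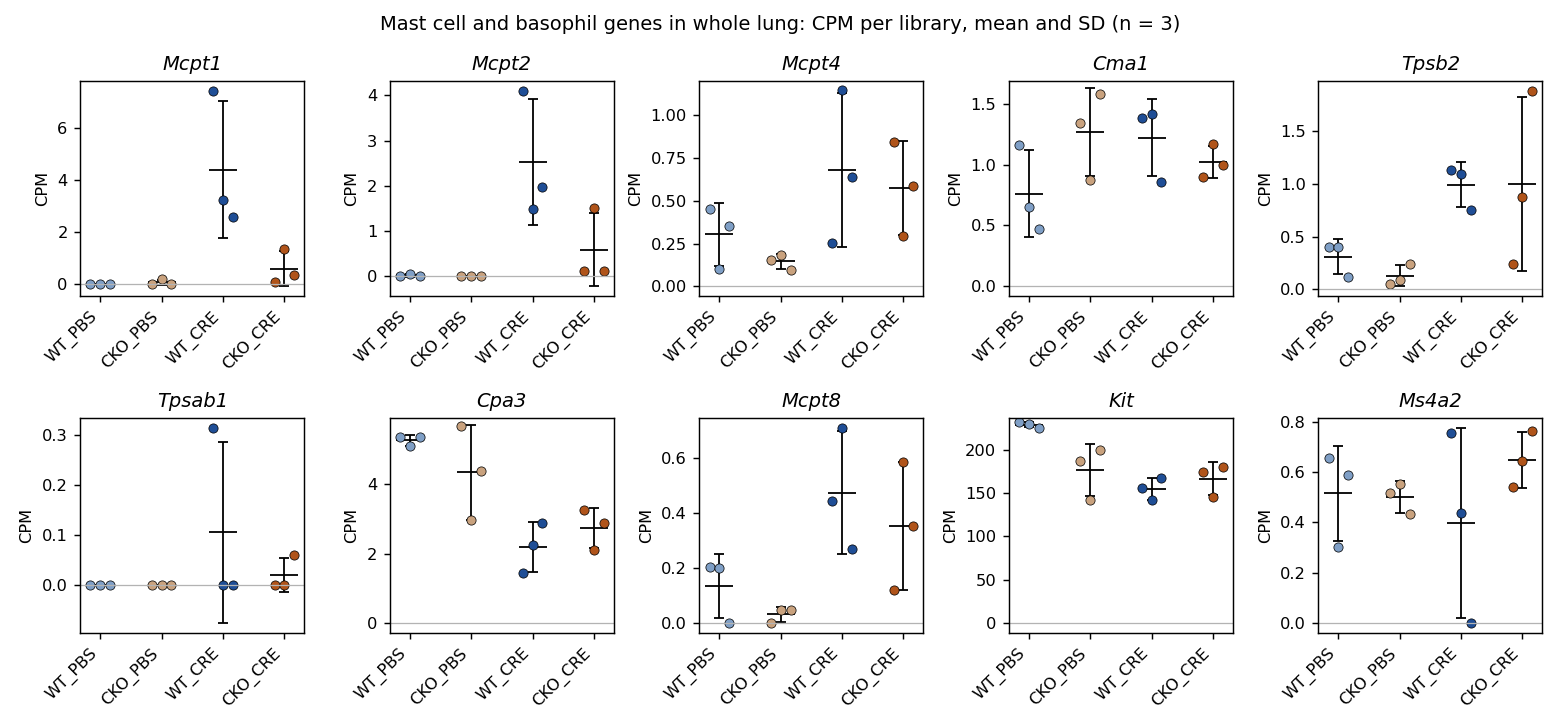
CPM of each gene (y axis, its own scale per panel, linear) in each library, shown as points, with the group mean and SD (n = 3) as bars. *Mcpt1* and *Mcpt2* lie at or near 0 under PBS and highest in WT_CRE, while *Cpa3* and *Kit* have their highest means in WT_PBS.

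Under CRE the genes moved in different directions. In WT, of the 8 tested, *Mcpt1* and *Mcpt2* rose and *Cpa3* and *Kit* fell. Over all tested genes 57.0% were called, 28.6% higher and 28.4% lower, so a count of 2 each way among 8 is close to the share in the genome at large. In CKO, *Mcpt2*, *Mcpt4* and *Tpsb2* rose and none fell, against 39.1% of all tested genes called (20.6% higher, 18.5% lower). The median log2 difference of the 8 was 0.92 in WT and 1.15 in CKO, beside 0.01 and 0.0044 over all genes. These counts and medians do not test the set, because *Mcpt1*, *Mcpt2*, *Mcpt4* and *Tpsb2* passed the filter through CRE libraries. The CKO groups alone left these genes below the filter, with 4 members tested and 0 called. The PBS groups alone also left 4 tested. A list of 10 mast cell markers, which shares genes with the members, had 9 tested. In WT 1 rose and 3 fell (median -0.0087), and in CKO 3 rose and 1 fell (median 0.084). In whole lung, fewer cells of a type and less RNA per cell cannot be told apart.

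Among the 8 tested genes the highest fold changes in WT were those of the mucosal mast cell proteases. *Mcpt1* (ENSMUSG00000022227) encodes mouse mast cell protease 1, a chymase of mucosal mast cells. It had 0 counts in all 3 WT_PBS libraries and 0, 4 and 0 counts in CKO_PBS. In WT_CRE it had 118, 59 and 48 counts, or 7.44, 3.22 and 2.57 CPM (mean 4.41 ± 2.65, SD, n = 3). Every WT_CRE library was thus above every PBS library, with replicate 1 highest. Set against a floor of 3 counts per library, it was at least 27.6-fold higher in WT_CRE than in WT_PBS (edgeR adjusted p = 0.000683), or at least 18.1-fold higher without WT_CRE replicate 1. The call held in all 19 alternatives, among them the fit with no low-count filter, which *Mcpt1* otherwise passed through CRE libraries. In CKO_CRE it had 1, 23 and 6 counts, or 0.0601, 1.34 and 0.353 CPM (mean 0.586 ± 0.673). Replicate 2 carried most of these reads, the libraries overlapped those of CKO_PBS, and the difference of 3.07 ± 1.24 was not called (adjusted p = 0.0748), except with no low-count filter (0.0218) and without CKO_CRE replicate 1 (0.0247), in a range of 0.0218 to 0.407. Without CKO_CRE replicate 2 it was 1.59. Without CKO_PBS replicate 2, which held all 4 counts of its group, CKO_PBS was at 0 and the fitted fold is not given.

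The gap between genotypes under CRE was wide for *Mcpt1* but was not called. All 3 CKO_CRE libraries (0.0601 to 1.34 CPM) were below all 3 WT_CRE libraries (2.57 to 7.44 CPM), and the summed counts of 30 against 225 gave a ratio of 0.139 with an exact 95% interval of 0.0915 to 0.204, which covers counting error only. The fitted difference was -2.89 ± 0.83 on the log2 scale (edgeR adjusted p = 0.129), in a comparison where 0.916% of all tested genes were called, 0.549% higher and 0.366% lower in CKO. Without CKO_CRE replicate 2 the difference was -4.36 and was called (adjusted p = 0.00586). Over all alternatives the adjusted p ran from 0.000683 to 0.398, and it was below 0.05 in 3 of 19, the other two being limma-voom (-4.04) and no low-count filter (-2.88). Those fits called more of all genes too, 28.5% without CKO_CRE replicate 2, 43.8% by limma-voom and 2.14% with no low-count filter.

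*Mcpt2* (ENSMUSG00000022226), a granule protease of the same mucosal cells and a neighbour of *Mcpt1*, was likewise highest in WT_CRE. It had 0, 1 and 0 counts in WT_PBS and 0 in all CKO_PBS libraries. In WT_CRE it had 65, 27 and 37 counts, or 4.10, 1.48 and 1.98 CPM, every library above every PBS library. It rose by 6.69 ± 1.29 on the log2 scale (edgeR adjusted p = 0.00162), but with a single count in WT_PBS the summed ratio of 138 had an exact interval of 24.4 to 5499. Leaving out WT_PBS replicate 2, which held that count, moved the fitted value to 8.53, and leaving out WT_CRE replicate 1 moved it to 6.16. Like *Mcpt1*, it passed the low-count filter through CRE libraries. In CKO_CRE it had 2, 26 and 2 counts, or 0.120, 1.52 and 0.118 CPM.

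The rise of *Mcpt2* in CKO rested on a single library. Against the floor of 3 counts per library it was at least 4.01-fold higher in CKO_CRE than in CKO_PBS (edgeR adjusted p = 0.0185). Without CKO_CRE replicate 2 the mean of the other 2 libraries was 0.119 CPM, under that floor, and the call was lost (adjusted p = 0.0700). It was also lost by limma-voom (0.0646), and held in the other 16 of 18 alternatives (range 0.000462 to 0.0700). With the CKO groups alone *Mcpt2* was below the filter and was not tested. Between genotypes under CRE, CKO_CRE replicate 2 (1.52 CPM) lay inside the range of the WT_CRE libraries (1.48 to 4.10), and the difference of -2.08 ± 0.81 was not called (adjusted p = 0.219). Without that library it was -4.32 and was called (adjusted p = 0.00276, with a range of 0.000415 to 0.527 over alternatives).

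The balance within the locus differed between PBS and CRE libraries in WT. *Mcpt1* and *Mcpt2* together gave 0%, 6.25% and 0% of the counts of *Mcpt1*, *Mcpt2*, *Mcpt4* and *Cma1* in WT_PBS, from 32, 16 and 14 counts, and 0%, 14.8% and 0% in CKO_PBS. With these few counts a share of 0 allows up to 9.38% in WT_PBS replicate 1 and 21.4% in replicate 3 by the limit of 3 counts, and the exact 95% intervals reach 10.9% and 23.2%. In WT_CRE the shares were 87.6% (exact Clopper-Pearson 95% interval 82.3 to 91.7), 64.7% (55.9 to 72.7) and 75.2% (66.2 to 82.9). All 3 were above every PBS library. In CKO_CRE they were 9.38% (1.98 to 25.0), 66.2% (54.3 to 76.8) and 22.9% (10.4 to 40.1), so replicate 2 lay in the WT_CRE range, replicate 3 lay between PBS and WT_CRE, and replicate 1 lay in the PBS range. The summed level of *Mcpt4* and *Cma1* covered overlapping ranges, at 0.756 to 1.68 CPM over the PBS libraries and 1.46 to 2.57 CPM over the CRE libraries. Component 1 scores in CKO_CRE had the same order as *Mcpt1* (replicate 2, then 3, then 1), and the part of that axis in the *Mcpt1* values was not tested.

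**Figure D2:**
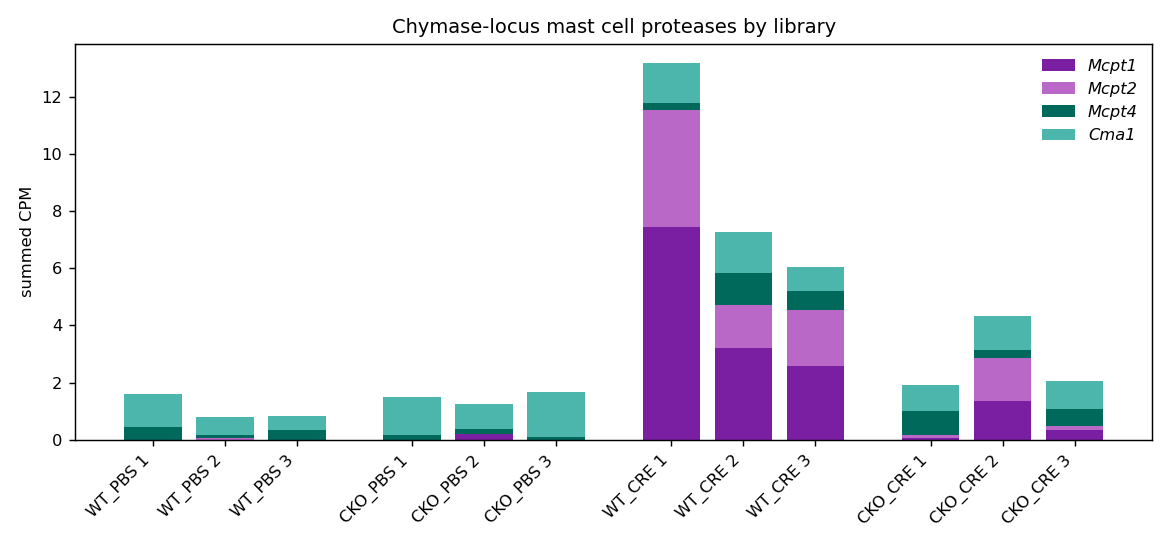
Summed CPM (y axis) of *Mcpt1*, *Mcpt2*, *Mcpt4* and *Cma1* in each of the 12 libraries (x axis), stacked by gene. The purple part (*Mcpt1* and *Mcpt2*) makes up 64.7% to 87.6% of the counts in WT_CRE and at most 14.8% under PBS, while in CKO_CRE it is large in replicate 2 only.

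The connective tissue chymases had smaller differences in WT. *Mcpt4* (ENSMUSG00000061068) encodes a chymotrypsin-like protease of connective tissue mast cells. It went from 0.455, 0.101 and 0.354 CPM under PBS to 0.252, 1.15 and 0.642 CPM under CRE in WT, and from 0.155, 0.185 and 0.0961 CPM to 0.841, 0.292 and 0.588 CPM in CKO, on 2 to 21 counts per library. The WT groups overlapped, with a difference of 1.17 ± 0.63 (edgeR adjusted p = 0.130). In CKO every CRE library was above every PBS library and the rise of 1.93 ± 0.71 was called (adjusted p = 0.0474), close to the threshold. That call was lost in 11 of 18 alternatives (adjusted p 0.0319 to 0.140 over all of them): with no low-count filter, with sex as a covariate, with the replicate number as a block (0.0728), and without WT_PBS replicate 1 or 3, any CKO_PBS replicate, WT_CRE replicate 3, or CKO_CRE replicate 1 or 3. With the CKO groups alone *Mcpt4* was below the filter and was not tested. *Cma1* (ENSMUSG00000022225) encodes an elastase-like mast cell protease in mice. Its levels were 0.471, 0.655 and 1.16 CPM under PBS and 0.856, 1.39 and 1.42 CPM under CRE in WT, in rising order, and 0.878, 1.34 and 1.59 against 0.901, 0.999 and 1.17 CPM in CKO. The groups overlapped in each comparison. Its CRE difference was 0.66 ± 0.39 in WT (adjusted p = 0.163) and -0.31 ± 0.38 in CKO (0.545). In WT it was called only by limma-voom (0.0337) and without WT_PBS replicate 1 (0.0483), in a range of 0.0337 to 0.421.

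Tryptases are the trypsin-like proteases of mast cell granules. *Tpsb2* (ENSMUSG00000033825) was at 0.404, 0.403 and 0.118 CPM in WT_PBS, and every WT_CRE library (1.14, 1.09 and 0.749) lay above these. The difference of 1.64 ± 0.67 just missed the threshold (edgeR adjusted p = 0.0553). It was called in 5 of 19 alternatives, namely the DESeq2 Wald test, limma-voom, the WT groups alone, and without CKO_CRE replicate 1 or 3 (range 0.0112 to 0.197). In CKO *Tpsb2* rose from 0.0517, 0.0924 and 0.240 CPM to 0.240, 0.877 and 1.88 CPM. The lowest CRE library there, at 0.2403 CPM, was barely above the highest PBS library, at 0.2402. The rise was 2.89 ± 0.76 (adjusted p = 0.0111) and was 2.06 and not called without CKO_CRE replicate 3 (0.0542, in a range of 0.00201 to 0.0542). Without CKO_PBS replicate 3 it was 3.65 and called. With the CKO groups alone *Tpsb2* was below the filter and was not tested. *Tpsab1* (ENSMUSG00000024173), the other tryptase, had 5 counts in WT_CRE replicate 1, 1 count in CKO_CRE replicate 3 and 0 in the other 10 libraries, which is too few to compare.

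*Cpa3* (ENSMUSG00000001865, chromosome 3, 20215620 to 20242181, minus strand) encodes carboxypeptidase A3, an exopeptidase that most mast cells store with their chymases and that basophils also express. In WT it went from 5.36, 5.09 and 5.36 CPM under PBS to 1.45, 2.24 and 2.89 CPM under CRE. Every WT_CRE library was below every WT_PBS library, and it fell by 1.25 on the log2 scale (SE 0.29, edgeR adjusted p = 0.00324), to 0.419 of the PBS level. The call held in all 19 alternatives, with adjusted p up to 0.0275. In CKO it was at 5.68, 2.96 and 4.37 CPM under PBS and 3.24, 2.10 and 2.88 under CRE. These overlapped, and the difference of -0.66 ± 0.29 was not called (adjusted p = 0.0886), except without CKO_PBS replicate 2, the lowest of its group (-0.87, adjusted p = 0.0363, range 0.0363 to 0.312). *Cpa3* therefore went the opposite way to *Mcpt1* and *Mcpt2* in WT. The summed lung marker level also was lower under CRE, as given above, and its part in the fall was not tested.

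*Mcpt8* (ENSMUSG00000022157) encodes a granzyme-like protease found in basophils. It had 4, 4 and 0 counts in WT_PBS, 0, 1 and 1 in CKO_PBS, 7, 13 and 5 in WT_CRE and 2, 10 and 6 in CKO_CRE. In each genotype every CRE library was above every PBS library, at these low counts and with no share over all genes to set beside it. In a fit with no low-count filter its CRE difference was 1.73 ± 0.87 in WT (edgeR adjusted p = 0.156) and 3.22 ± 1.07 in CKO (0.0321), where the summed ratio of 10.96 had an exact interval of 2.62 to 97.4. That fit called 29.1% of all genes in WT and 19.5% in CKO. *Prss34*, another basophil protease, was not tested and had 0 to 2 counts in the PBS libraries, 3 to 7 in WT_CRE and 6 to 14 in CKO_CRE.

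*Kit* (ENSMUSG00000005672, chromosome 5, 75574916 to 75656722, plus strand) fell in WT. The libraries were at 233, 229 and 226 CPM under PBS and at 156, 142 and 167 CPM under CRE, with no overlap. The difference was -0.57 ± 0.13 (edgeR adjusted p = 0.00258), a fall to 0.675 of the PBS level, called in all 19 alternatives. In CKO it was at 187, 142 and 200 CPM under PBS and 175, 145 and 180 CPM under CRE, with a difference of -0.08 ± 0.13 that was not called (adjusted p = 0.636) and that was positive without CKO_PBS replicate 3 (0.02) or CKO_CRE replicate 2 (0.01). Within PBS all CKO libraries were below all WT libraries, but the difference of -0.38 ± 0.13 was not called (adjusted p = 0.607). The CRE response of CKO minus that of WT was 0.48 ± 0.18 (adjusted p = 0.416). It was called without CKO_CRE replicate 2 (0.58, adjusted p = 0.0344) and by limma-voom (0.54, 0.00832), in a range of 0.00832 to 0.722.

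*Kit* was 42.1 to 45.1 times *Cpa3* in counts in WT_PBS libraries and 57.9 to 107 times in WT_CRE. In CKO it was 32.9 to 48.2 times under PBS and 53.9 to 69.1 times under CRE. These ratios are not scaled for exon length, which is 8911 bases in *Kit* and 1517 in *Cpa3*. A list of 8 markers of capillary endothelium (*Gpihbp1*, *Plvap*, *Cdh5*, *Pecam1*, *Tek*, *Aplnr*, *Ptprb* and *Cd93*), another cell that carries *Kit*, was counted beside *Kit*. In WT all 8 fell under CRE, as *Kit* did (median -1.08). In CKO 7 of 8 fell (median -0.68, with 4 of 8 called without CKO_PBS replicate 3), where *Kit* was not called. Among the CKO genes *Plvap* was not called. None of the 8 was at 0 in any group. Their summed level was 5495 to 5813 CPM under PBS and 2252 to 2650 under CRE in WT, and 4836 to 6037 against 2280 to 3927 CPM in CKO. As a share of that sum *Kit* was 4.09% ± 0.179 in WT_PBS and 3.25% ± 0.278 in CKO_PBS, against 6.33% ± 0.0511 in WT_CRE and 5.27% ± 0.995 in CKO_CRE (SD, n = 3), so *Kit* was lower by less than the marker sum. Of 5 progenitor markers, *Cd34* and *Procr* rose and *Meis1* fell in WT, *Cd34*, *Flt3* and *Procr* rose in CKO, and none was at 0. Their summed level was 243 to 277 CPM under PBS and 295 to 354 CPM under CRE. The part of either cell type in the *Kit* values was not tested.

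**Figure D3:**
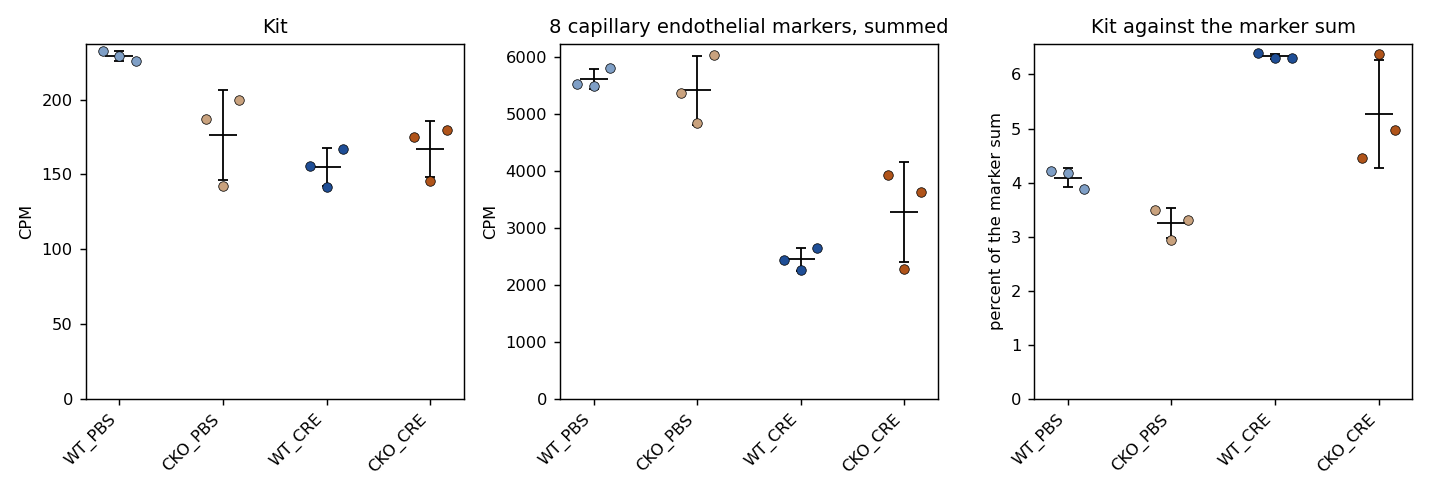
*Kit* in CPM (left), the sum of 8 capillary endothelial markers in CPM (middle) and *Kit* as a percent of that sum (right), per library (points) with group mean and SD (bars, n = 3), on linear axes from 0. Both levels are lower in WT_CRE than in WT_PBS, and the percent is higher.

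The IgE receptor chain gene *Ms4a2* (ENSMUSG00000024680, chromosome 19, 11615523 to 11623719, minus strand), whose product is the signal-amplifying beta chain, did not pass the test in any comparison. In WT it was at 0.657, 0.302 and 0.589 CPM under PBS and 0.757, 0.437 and 0 under CRE, and in CKO at 0.517, 0.554 and 0.432 against 0.541, 0.643 and 0.764 CPM. The groups overlapped in each comparison. The CRE difference was -0.40 ± 0.71 in WT (edgeR adjusted p = 0.649), positive at 0.20 without WT_CRE replicate 3, the library with 0 counts. In CKO it was 0.37 ± 0.67 (adjusted p = 0.687). *Fcer1a*, the IgE-binding alpha chain, was not tested and had 0 to 7 counts per library under PBS and 3 to 10 under CRE.

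**Figure D4:**
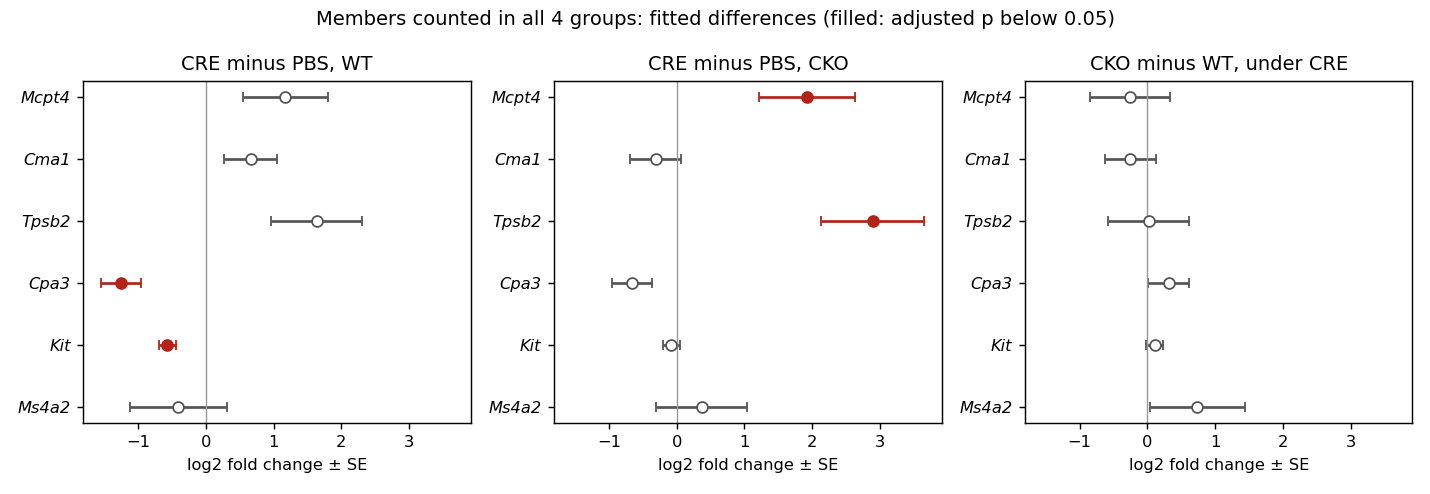
Log2 fold change ± SE (x axis) of the 6 tested genes with counts in all 4 groups, for CRE minus PBS in WT (left), in CKO (middle) and CKO minus WT under CRE (right). Filled red points passed the test: *Cpa3* and *Kit* lower in WT, *Mcpt4* and *Tpsb2* higher in CKO, and none between genotypes.

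Between genotypes no member was called by edgeR. Under PBS 0 of 8 were called, against 0.109% of all tested genes (0.0401% higher, 0.0687% lower). Only *Kit* had an unadjusted p below 0.05, as did 5.32% of all genes, and DESeq2 and limma-voom called 0. *Mcpt1* and *Mcpt2* had 0 to 4 counts per library there and are given no fold. The other differences under PBS were -1.02 ± 0.75 for *Mcpt4*, -1.24 ± 0.85 for *Tpsb2* (-2.00 without CKO_PBS replicate 3), 0.72 ± 0.38 for *Cma1*, -0.28 ± 0.28 for *Cpa3* and -0.04 ± 0.68 for *Ms4a2* (adjusted p = 1 for each). Under CRE 0 of 8 were called by edgeR and 0 by DESeq2, while *Mcpt1* and *Mcpt2* had an unadjusted p below 0.05 and were both called, lower in CKO, by limma-voom and without CKO_CRE replicate 2. Over all genes 18.5% had an unadjusted p below 0.05, limma-voom called 43.8% and the fit without that library 28.5%, so in those last 2 fits 2 of 8 is no more than the share among all genes. The remaining CRE differences were no more than about their SE, at 0.31 ± 0.30 for *Cpa3*, 0.11 ± 0.13 for *Kit*, 0.02 ± 0.60 for *Tpsb2*, -0.26 ± 0.59 for *Mcpt4*, -0.25 ± 0.38 for *Cma1* and 0.74 ± 0.70 for *Ms4a2* (1.56 without WT_CRE replicate 1 and 0.14 without WT_CRE replicate 3). The signs for *Tpsb2* and *Mcpt4* changed under some alternatives. When the CRE response of WT was subtracted from that of CKO, edgeR called 0 of 8, against 0.0458% of all genes (0.0343% higher, 0.0114% lower), with *Kit* at an unadjusted p below 0.05, as were 10.3% of all genes. DESeq2 called 0 and limma-voom called 2, *Cpa3* and *Kit*, where it called 25.0% of all genes. Without CKO_CRE replicate 2 *Kit* alone was called, beside 14.8% of all genes. For *Mcpt1* the difference of responses had an edgeR adjusted p of 0.487 and was called in 0 of 18 alternatives. Under CRE *Mcpt1*, *Cpa3* and *Kit* were called in WT and not in CKO, and *Mcpt4* and *Tpsb2* in CKO and not in WT. None of these is thus shown to be a difference between the genotypes.

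Beside the members, 8 lists of other genes of mast cell and basophil biology were counted. They held 92 further genes, of which 80 were tested. Under CRE 49 of the 80 rose and 13 fell in WT, and 45 rose and 7 fell in CKO. Over all tested genes 28.6% rose and 28.4% fell in WT, and 20.6% and 18.5% in CKO, and the counts of each list are to be read against these shares. Most of these genes are also expressed by other leukocytes. The sum of 5 eosinophil markers was at most 25.6 CPM in any PBS library, 45.3 to 76.8 in WT_CRE and 30.6 to 56.1 in CKO_CRE. The sum of 6 neutrophil markers was 42.3 to 63.2 CPM under PBS and 190 to 311 under CRE in WT, and 67.3 to 274 against 94.1 to 303 CPM in CKO. The neutrophil ranges thus overlapped in CKO, where 1 of 5 tested markers rose (median 0.074), while all 5 rose in WT. No marker of either list was at 0 in any group, and their part in the list counts was not tested.

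Of 3 tested genes of mediator storage, 2 rose in each genotype. *Srgn* encodes serglycin, the proteoglycan core that packs granule proteases, and rose in WT from 118, 105 and 107 CPM to 436, 412 and 363 (log2 1.88 ± 0.22, edgeR adjusted p = 5.22e-05). In CKO it rose from 93.3, 117 and 104 to 156, 329 and 191 (1.10 ± 0.22), and no CRE library overlapped a PBS library in either genotype. *Hdc*, the histamine-forming enzyme, rose by 1.71 ± 0.22 in WT and by 0.71 ± 0.21 in CKO (adjusted p = 0.0202), where the call was lost without CKO_PBS replicate 1 (0.0789) or 3 (0.0792) or CKO_CRE replicate 2 (0.0546), in a range of 0.00237 to 0.0792. *Slc18a2*, which loads histamine into granules, was at 2.49 and 2.48 CPM in WT_PBS and WT_CRE and was not called. The protease genes *Mcpt9*, *Cma2*, *Tpsg1* and *Ctsg* had 5 counts or fewer in any library.

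Of 16 tested genes of IgE receptor signalling, 12 rose and 2 fell in WT, and 11 rose and 1 fell in CKO (medians 0.95 and 0.76). The lower count in CKO was 0 without CKO_PBS replicate 3 and 2 without CKO_PBS replicate 2 or CKO_CRE replicate 1. *Fcer1g*, the shared gamma chain of the IgE receptor and other Fc receptors, rose from 32.1, 36.3 and 38.1 CPM to 139, 149 and 99.2 in WT (log2 1.86 ± 0.39) and from 26.1, 44.6 and 29.9 to 52.2, 196 and 83.8 in CKO (1.72 ± 0.39, or 1.02 without CKO_CRE replicate 2). *Lat2*, an adaptor of mast cells and B cells, rose by 2.63 ± 0.30 and 1.98 ± 0.29. The adaptors *Lcp2* (1.73 ± 0.18 and 1.29 ± 0.18) and *Lat* (1.74 ± 0.29 and 0.83 ± 0.28) and the exchange factor *Vav1* (1.85 ± 0.22 and 1.55 ± 0.22) also rose in both genotypes. The *Lat* libraries overlapped in CKO, and the call there (edgeR adjusted p = 0.0338) was lost in 6 of 19 alternatives (range 0.00174 to 0.144), among them without CKO_PBS replicate 1 or 3 or CKO_CRE replicate 2 or 3. In CKO_CRE the values of *Srgn*, *Fcer1g* and *Cd200r3* were highest in replicate 2, as were those of *Mcpt1* and *Mcpt2*.

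**Figure D5:**
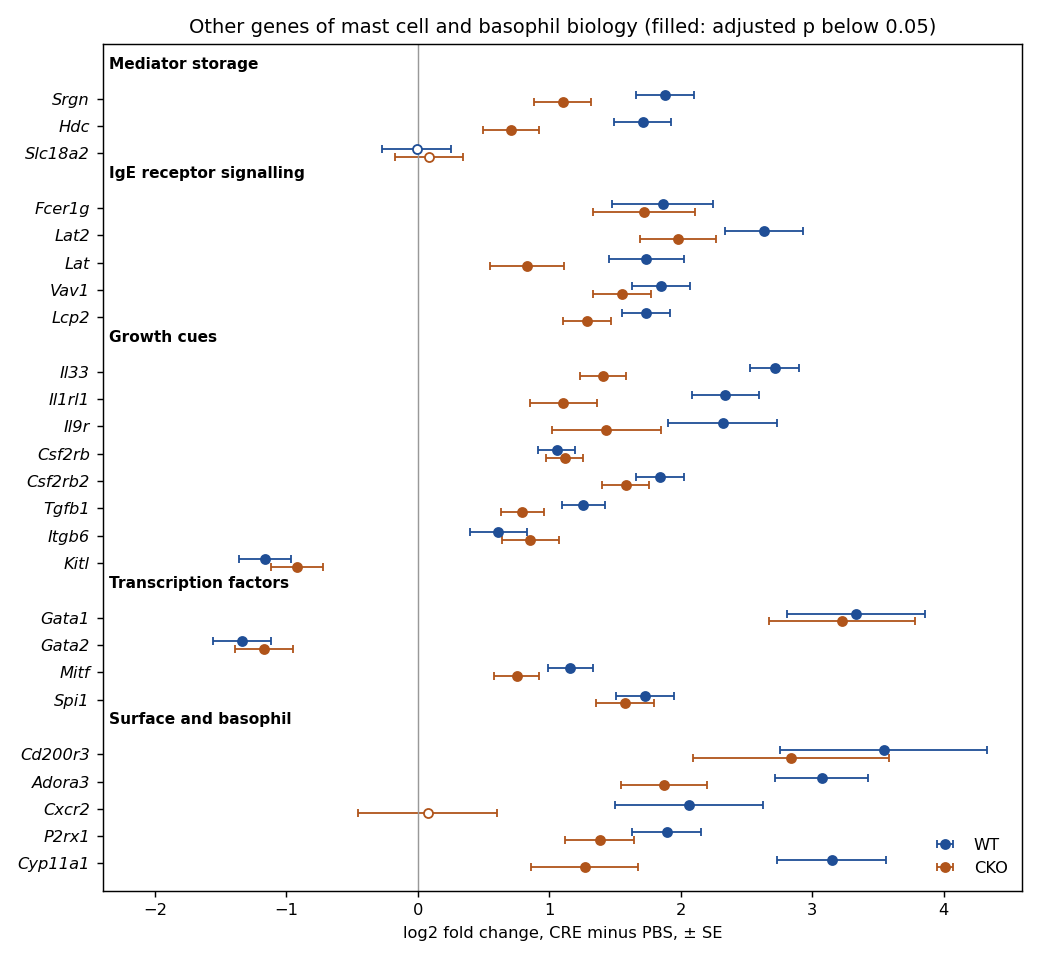
Log2 fold change ± SE (x axis), CRE minus PBS, of other genes of mast cell and basophil biology in WT (blue) and CKO (orange). Filled points passed the test. *Slc18a2* in both genotypes and *Cxcr2* in CKO did not, and *Kitl* and *Gata2* are lower under CRE.

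Growth and survival cues moved in both directions. Of 13 tested genes 9 rose and 2 fell in WT, and 9 rose and 1 fell in CKO (medians 1.25 and 0.86). In WT the lower count was 1 without WT_PBS replicate 1 or 2 or WT_CRE replicate 2 or 3. *Kitl*, the ligand of *Kit*, fell by 1.16 (SE 0.20, from 352 to 157 CPM) in WT and by 0.92 (SE 0.19, from 335 to 177 CPM) in CKO, and the calls held in all 19 alternatives of each. *Il33*, an epithelial alarmin that activates mast cells and basophils, rose by 2.71 ± 0.18 in WT and 1.41 ± 0.18 in CKO. Its receptor *Il1rl1*, which is also a marker of type 2 lymphoid cells, rose by 2.34 ± 0.26 and 1.11 ± 0.26. *Tgfb1*, the cytokine that induces *Mcpt1* in cultured mast cells, rose by 1.26 ± 0.17 and 0.79 ± 0.16. *Itgb6*, an epithelial integrin that activates it, rose by 0.61 ± 0.22 and 0.86 ± 0.22. The WT call of *Itgb6* (edgeR adjusted p = 0.0312) was lost with sex as a covariate and without any WT_PBS replicate or WT_CRE replicate 2 or 3 (range 0.00011 to 0.104), and its CKO call (0.00983) only with the CKO groups alone (0.0597).

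The receptor genes *Il9r* (2.32 ± 0.42 and 1.43 ± 0.42), *Csf2rb* (1.06 ± 0.14 and 1.12 ± 0.14) and *Csf2rb2* (1.84 ± 0.18 and 1.58 ± 0.18), for cytokines that feed mast cells and basophils, rose in both genotypes. In CKO the *Il9r* libraries overlapped, and the call (adjusted p = 0.0179) was lost without CKO_PBS replicate 2 or 3, without CKO_CRE replicate 2, with the CKO groups alone and with sex as a covariate (range 0.00174 to 0.0779). The cytokines *Il3* and *Il9* had 0 counts in every library.

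*Il1rl1* was the only one of the 80 that edgeR called between genotypes under CRE. That is 1.25%, close to the 0.916% of all tested genes called. Under CRE *Il1rl1* was at 39.4, 43.7 and 31.7 CPM with *Rhoa* unfloxed and at 13.3, 19.3 and 13.6 CPM in CKO (-1.31 ± 0.25, edgeR adjusted p = 0.0322). The libraries did not overlap, and the call was lost in 9 of 19 alternatives (range 2.41e-05 to 0.138), which left out any WT_PBS or WT_CRE replicate or CKO_CRE replicate 1 or 3 or kept the CRE groups alone. At an unadjusted p below 0.05 there were 11 of the 80 (18.5% of all genes), and DESeq2 called 5 (4.80% of all genes) and limma-voom 35 (43.8% of all genes). Without CKO_CRE replicate 2 this comparison called 25 of the 80, 4 higher and 21 lower in CKO, where 28.5% of all genes were called. *Il1rl1* stayed among the 21. Others lower there were *Srgn* (-1.22), *Lat2* (-0.98), *Il33* (-0.78), *Tgfb1* (-0.57), *Fcer1g* (-0.92) and *Il9r* (-1.51), and *Kitl* was higher (0.40). Under PBS edgeR, DESeq2 and limma-voom called 0 of the 80 between genotypes, against 0.109%, 0.653% and 0.836% of all genes. There 8 of the 80 had an unadjusted p below 0.05 by edgeR (5.32% of all genes). For the difference of CRE responses edgeR called 0 of the 80 (0.0458% of all genes), with 10 at an unadjusted p below 0.05 (10.3% of all genes). DESeq2 called 2 (0.733% of all genes) and limma-voom 21 (25.0%). Without CKO_CRE replicate 2 edgeR called 18 of the 80, 2 higher and 16 lower, beside 14.8% of all genes. Among the 16 were *Il33* (-1.39), *Il1rl1* (-1.43), *Srgn* (-1.15), *Hdc* (-1.08), *Lat2* (-1.17) and *Tgfb1* (-0.75). The summed level of 7 markers of type 2 lymphoid and T cells was 149 to 154 CPM under PBS and 167 to 186 under CRE in WT, and 144 to 206 against 121 to 157 CPM in CKO, with none at 0, and its part in the *Il1rl1* values was not tested.

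Of 10 transcription factor genes, 5 rose and 3 fell in WT, and 5 rose and 2 fell in CKO (1 without CKO_PBS replicate 1 or 3). *Gata1*, a factor of mast cells, basophils, eosinophils and red cells, rose from 0.303, 0.403 and 0.236 CPM to 3.28, 4.81 and 1.66 in WT (log2 3.33 ± 0.52) and from 0.0517, 0.370 and 0.192 to 1.38, 2.34 and 2.29 in CKO (3.22 ± 0.56, or 3.94 without CKO_PBS replicate 2). *Gata2*, which mast cells need and endothelium also expresses, fell by 1.34 (SE 0.22, from 196 to 77.4 CPM) in WT and by 1.17 (SE 0.22, from 186 to 82.8 CPM) in CKO. These GATA factors thus moved in opposite directions. *Mitf*, a factor that drives mast cell genes, rose by 1.16 ± 0.17 and 0.75 ± 0.17, and *Spi1*, a factor of myeloid cells, by 1.73 ± 0.22 and 1.58 ± 0.22.

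Of 11 tested surface genes, 7 rose and 2 fell in WT, and 4 rose and 1 fell in CKO. In WT the higher count was 4 without WT_PBS replicate 3, and in CKO it was 7 without CKO_CRE replicate 1. The lower count in WT was 1 without WT_PBS replicate 1 or 3, CKO_PBS replicate 1, or WT_CRE replicate 1 or 2. *Cd200r3*, an activating receptor of basophils and mast cells, rose from 0.101, 0.453 and 0.354 CPM to 2.59, 5.52 and 2.62 in WT (log2 3.54 ± 0.79, or 2.95 with sex as a covariate, still called). In CKO it rose from 0.258, 0.370 and 0.673 to 1.14, 7.01 and 1.29 (2.84 ± 0.74, edgeR adjusted p = 0.0110), and leaving out CKO_CRE replicate 2 ended the call (1.47, adjusted p = 0.0637, range 0.000458 to 0.0637). *Adora3*, an adenosine receptor, rose by 3.07 ± 0.35 and 1.87 ± 0.32, *P2rx1* by 1.89 ± 0.26 and 1.38 ± 0.26, and *Cxcr2*, also a neutrophil receptor, by 2.06 ± 0.56 in WT. In CKO *Cxcr2* was at 13.5, 30.6 and 7.59 CPM under PBS and 17.1, 31.2 and 6.17 CPM under CRE. The integrin gene *Itga2* fell by 0.86 (SE 0.17) and 0.65 (SE 0.17). *Cyp11a1*, from a separate list of 7 basophil markers, rose by 3.15 ± 0.42 in WT and 1.27 ± 0.41 in CKO. The second call was lost in 8 of 19 alternatives (range 0.00809 to 0.0905), among them without any CKO_PBS replicate or CKO_CRE replicate 2 or 3. Among the 4 tested genes of that list, *Cd200r3* also rose, *Gata2* fell and *Ms4a2* was not called, in both genotypes. The list's summed level, mostly *Gata2*, was 194 to 201 CPM in WT_PBS and 66.8 to 100 in WT_CRE. In CKO the sum was 165 to 222 CPM under PBS and 66.1 to 102 under CRE.

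The remaining lists held machinery and targets. Of 10 granule fusion genes, 5 rose and 1 fell in each genotype (medians 0.21 and 0.18), with 3 higher in WT without WT_PBS replicate 2 or 3 and 2 lower without WT_PBS replicate 1 or CKO_CRE replicate 2. Of 7 genes of leukotriene and prostaglandin D2 synthesis, *Pla2g4a*, *Alox5ap*, *Ptgs1* and *Hpgds* rose in both genotypes and none fell. Of 10 genes for receptors and breakdown of mast cell mediators, 5 rose in each genotype, 3 fell in WT and 1 in CKO. In CKO the higher count was 3 without CKO_PBS replicate 3 and the lower count 2 without WT_CRE replicate 2 or 3 or CKO_CRE replicate 1.

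The genes whose log2 CPM was most like that of a member over the 12 libraries, among 13870 genes with a mean of at least 1 CPM, were taken by Pearson's r. The libraries share the 4 groups and the CRE axis, so these values describe the pattern only. For *Mcpt1* they were *Dapk3* (0.980), *Trim28* (0.979), *Nos2* (0.978) and *Rpsa* (0.975). For *Mcpt8* they were *Ndufb8* (0.952), *Vta1* (0.947), *Nfu1* (0.941) and *Mrps18c* (0.941). For *Cpa3* they were *Stox1* (0.981), *Aard* (0.973) and *Jmjd4* (0.968), and for *Kit* they were *Rspo1* (0.944), *Sox11* (0.940), *Dgke* (0.932) and *C1galt1* (0.928).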

How the data were processed

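Whole-lung RNA of 12 mouse libraries in 4 groups of 3 was analysed. Read counts per gene were used as the authors deposited them, in 1 table of 54532 Ensembl genes, with whole numbers summing to 16250674 to 21559210 per library. The submitters' processing notes name fastp, STAR and build mm10, and per the labels' protocols messenger RNA was taken with oligo-dT into NEBNext Ultra libraries, with the counting tool, strand setting and treatment of reads matching several places not given in the sources used here. Symbols and exon lengths came from GENCODE M21.

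The deposited counts went into edgeR 4.0.16 under R 4.3.3 (TMM, filterByExpr, a mean per group, quasi-likelihood F test over 17473 genes), and calls used Benjamini-Hochberg adjustment at 0.05. The biological coefficient of variation came to 17.4%. Alternatives were DESeq2 size factors, the DESeq2 1.42.0 Wald test, limma-voom 3.58.1 with quality weights, no low-count filter, a replicate block, only the groups compared, sex as a covariate, and each of the 12 libraries left out. The fits were tested on simulated data. Intervals are exact at 95% and, like floors of 3 counts per library, cover counting error only. Transcripts were aligned with blastn 2.17.0. Outside the members, up to 4 called genes per list and comparison with a mean of at least 1 CPM were named by size of change, and for *Mcpt1*, *Mcpt8*, *Cpa3* and *Kit* the 4 most alike genes, of which 1 is not reported here. *Kitl*, *Tgfb1*, *Itgb6*, *Cyp11a1*, *Slc18a2*, *Prss34*, *Fcer1a*, the other untested genes, the lipid mediator genes and values of a named gene in its other genotype were added after their values were seen. The members, lists and tests were chosen with earlier results of these data known.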

Additional observations from a re-analysis of the deposited data

How the results depend on the processing

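Of 737 fold changes of members under alternatives, 686 kept their direction and side of the threshold, 18 gained a call, 14 lost one and 19 changed sign. Members called numbered 4 higher in WT by limma-voom, 0 higher in CKO with only the groups compared (*Mcpt1*, *Mcpt2*, *Mcpt4* and *Tpsb2* were below the filter there), 2 lower in CKO under CRE by limma-voom and 1 with no low-count filter, and 2 for the difference of CRE responses by limma-voom. With 1 library left out these counts ran over 2 to 3, 2 to 4, 0 to 2 and 0 to 1, and members lower under CRE in CKO over 0 to 1.

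All genes called under CRE in CKO numbered 6830, or 3812 with only those groups. CKO against WT under PBS gave 19, but 114 by DESeq2, 146 by limma-voom, 89 with no filter, 74 with only those groups and 12 to 53 with 1 library left out. Under CRE it gave 160, but 838, 7645, 691 and 29 in that order, and 38 to 5112. The difference of responses gave 8, but 128 by DESeq2, 4371 by limma-voom, 81 with no filter, 2 with sex as a covariate, and 0 to 2660. The highest of these ranges came without CKO_CRE replicate 2, and the lowest without WT_PBS replicate 2 or 3 or CKO_PBS replicate 3 (12), without WT_CRE replicate 1 (38) and without WT_PBS replicate 1 or 2, CKO_PBS replicate 1 or 2, WT_CRE replicate 1 or 3 or CKO_CRE replicate 3 for the difference of responses (0). The cause was not tested. Depth limits *Mcpt4*, *Mcpt8*, *Tpsb2*, *Tpsab1* and *Ms4a2*, which had 0 to 32 counts per library, and *Cma1*, which had 8 to 33. It also limits *Mcpt1* and *Mcpt2*, with 0 to 4 counts per PBS library and 1 to 26 per CKO_CRE library.

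Signs changed with 1 library left out for *Ms4a2* under CRE in WT (-1.22 to 0.20), *Kit* in CKO (-0.22 to 0.015), *Ms4a2* between genotypes under PBS (-0.31 to 0.18), *Mcpt4* (-0.63 to 0.33) and *Tpsb2* (-0.81 to 0.48) between genotypes under CRE, and *Mcpt2* in the difference of responses (-2.46 to 0.32). Further reversals were *Ms4a2* under PBS with sex as a covariate (0.0846), *Mcpt4* under CRE by limma-voom (0.59) and *Tpsb2* under CRE with sex as a covariate (-0.0853). *Mcpt1* and *Mcpt2* under PBS gave no fold without the single library that held their counts.

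The labels do not say what same-numbered libraries share. Correlations of their deviations ran from -0.023 to 0.176. A replicate block gave 9919 calls in WT, 6999 in CKO, 17 under PBS, 151 under CRE and 0 for the difference of responses, with *Tpsb2* between genotypes under CRE at -0.12 and *Mcpt4* under CRE in CKO at an adjusted p of 0.0728. Only in CKO against WT under PBS did every library correlate best with its own number, though some did in each other comparison.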
